A study of Saccharomyces cerevisiae with 32 samples.

Results

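The 10 genes described here encode the enzymes and regulatory subunits that make and break down trehalose and glycogen, the carbohydrate stores of budding yeast. They were chosen by name, as TPS1, TPS2, TPS3, TSL1, NTH1, GSY1, GSY2, GLC3, GPH1 and GDB1, among 6225 genes on the array. The study followed transcript levels through the cell cycle in 2 Saccharomyces cerevisiae strains, on 32 Agilent arrays of 2 colours. It asked what phosphomutant forms of S-phase transcription factors do to transcription, under a title on their regulation by the kinase Cdk1.

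The control strain, YBL320 (WT), carried epitope-tagged factors, as HCM1-3HA, TOS4-3FLAG, YOX1-3V5 and YHP1-13MYC. The mutant strain, YBL289 (4P), carried the same tags on mutated forms, with hcm1-15A-3HA and tos4-9A-3FLAG beside yox1-9A-3V5 and yhp1-13A-13MYC. No single mutant was among the samples, so the parts of the mutated factors cannot be told apart. Both strains were arrested with alpha-factor, the mating pheromone, for 2 h in G1 and released, and samples were taken each 15 min from 0 to 105 min. Each of the 16 groups held 2 arrays, and the arrays of a strain and replicate number formed 1 time course. The other channel of each array held RNA of the untagged strain MW836a in asynchronous mid-log growth. A value below is the log2 ratio of the synchronised sample over that reference, so 1 unit is a doubling, and 0 is the level of the growing reference culture.

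Trehalose and glycogen accumulate when yeast grows slowly, meets stress or runs short of glucose, and they are used up when growth resumes. Trehalose is made by a complex in which Tps1 joins glucose units into trehalose-6-phosphate and Tps2 removes the phosphate, with Tps3 and Tsl1 as regulatory subunits. Neutral trehalase, Nth1, splits trehalose again. Glycogen is extended by the synthases Gsy1 and Gsy2 and branched by Glc3, and it is taken apart by the phosphorylase Gph1 and the debranching enzyme Gdb1. Many of these genes are known targets of the stress activators Msn2 and Msn4, which protein kinase A restrains.

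Each of the 10 genes had 1 probe, which was well above background in both channels on 32 of 32 arrays and saturated on none. A probe counted as above background when at least 1 of its 2 spots was. TPS3 lacked a value on the 4P array at 105 min of replicate 1, where its spots were marked as outliers, so its group there held 1 array. Over all probes, 94.8% to 99.6% of spots in the synchronised channel passed the scanner's test against background, at a median signal of 6.67 to 81.5 times background. Outlier spots were most frequent on the 4P arrays of replicate 1 at 105 min (1761 spots) and 15 min (526 spots). On these arrays the median signal of the reference channel was 4.90 and 7.40 times background, against 24.7 or more on the others. The arrays lay on 5 slides that largely coincided with strain and replicate, and precision is limited by having 2 arrays per group. The mean of 4 arrest markers was 4.02 in WT and 3.91 in 4P at 0 min, and the mean of 4 G1/S markers was 1.78 and 1.74 at 15 min. An array measures a whole culture, so a shift in the share of cells at a stage and a change of RNA per cell cannot be told apart.

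The 10 genes moved through the course largely together. Their mean was low in the arrest, high at 15 min, low again at 30 and 45 min, and high at 75 min, while at 60 min it was above 0 in WT (0.16 and 0.20) and below 0 in 4P (-0.28 and -0.26). GPH1 and GDB1 departed from this at 30 min, with means of 0.079 and 0.22 in WT and 0.27 and 0.016 in 4P. At 60 min the genes were spread. Their means then ran from -0.49 (GPH1) to 1.23 (GSY1) in WT and from -1.14 (GPH1) to 0.74 (GSY1) in 4P. All 10 changed over the course in WT, as did 9 of 10 in 4P (moderated F tests in limma, Benjamini-Hochberg adjusted p under 0.05), where 35.7% and 40.4% of all 6205 genes tested changed. The range of group means over the course had a median of 1.78 in WT and 2.04 in 4P over the 10 genes, against 0.606 and 0.628 over all genes. The mean of the 10 genes went from -0.80 and -1.02 at 0 min in WT to 0.39 and 0.10 at 15 min, -1.02 and -1.03 at 45 min, and 0.78 and 0.45 at 75 min. In 4P the mean was -0.96 and -0.99 at 0 min, 0.72 and 0.56 at 15 min, -1.15 and -0.88 at 45 min, and 0.21 and 0.16 at 75 min. In each of the 4 courses the values at 0 and 45 min lay below those at 15 and 75 min.

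**Figure D1:**
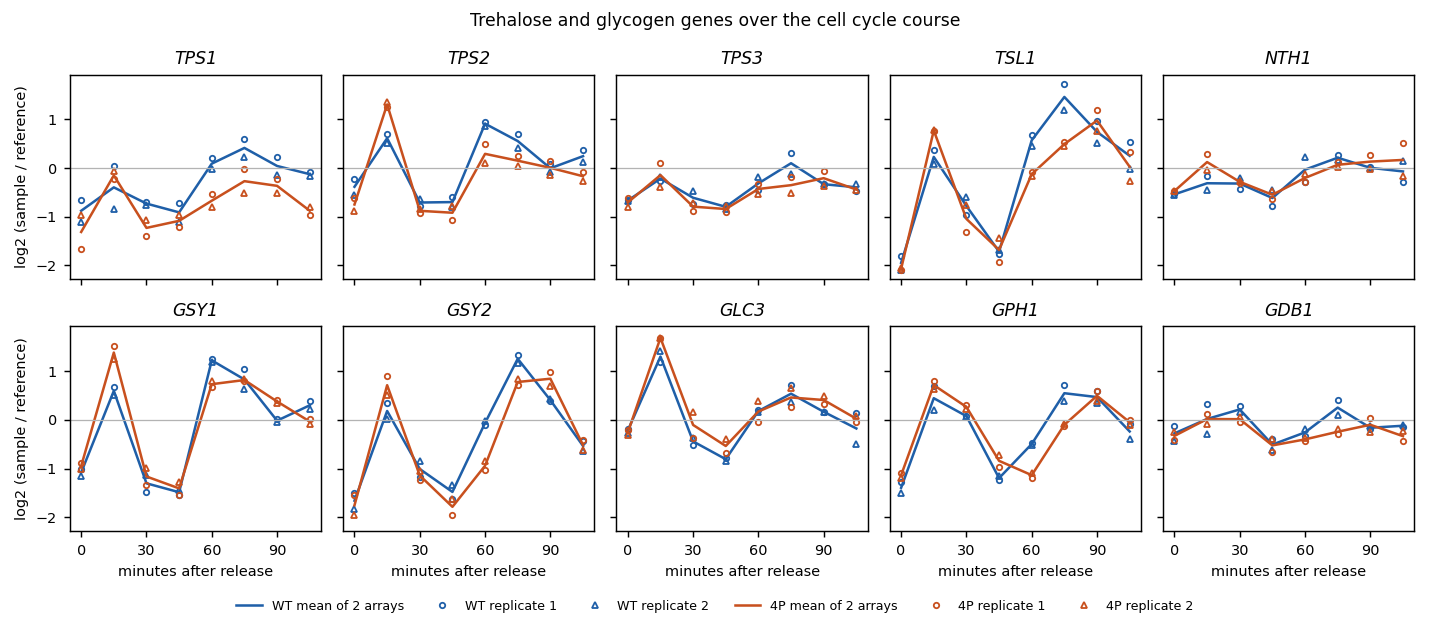
Log2 ratio of synchronised sample over reference (vertical axis) against minutes after release (horizontal axis) for the 10 genes in WT (blue) and 4P (orange). Circles and triangles are the arrays of replicates 1 and 2 and lines join their means. TSL1, GSY1 and GSY2 had the widest ranges in both strains, and TPS3, NTH1 and GDB1 the narrowest.

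**Figure D2:**
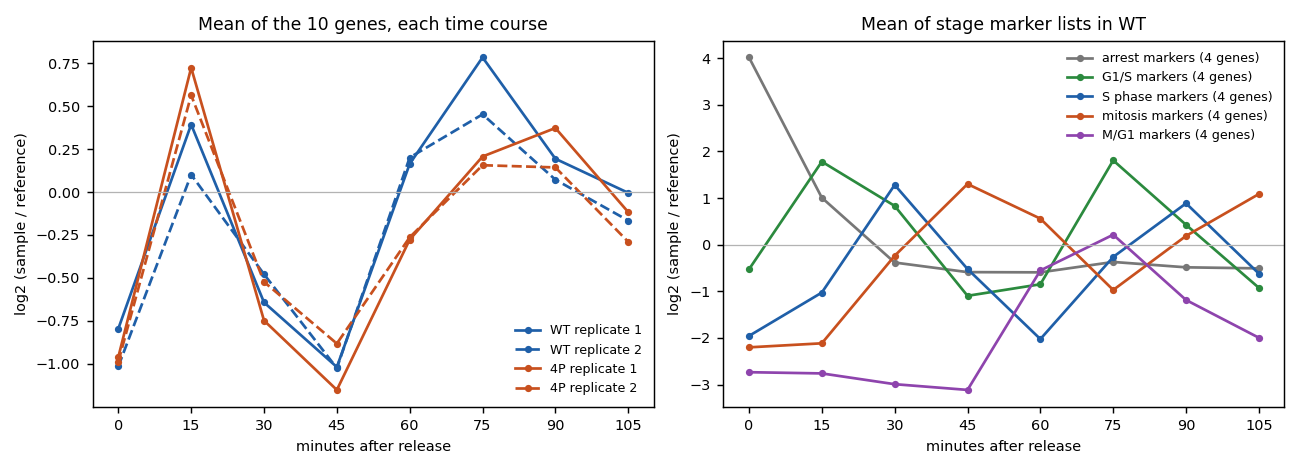
Left, the mean log2 ratio of the 10 genes in each of the 4 time courses against minutes after release. Right, the mean log2 ratio of 5 lists of 4 stage markers in WT on the same time axis, where the G1/S markers, like the 10 genes, were high at 15 and 75 min, but stood at 0.83 at 30 min and -0.85 at 60 min, where the WT mean of the 10 genes was low and above 0.

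Taken step by step, 6 genes rose in WT from 0 to 15 min, where 9.15% of all genes rose, and 8 rose in 4P, where 8.7% did. All 10 had a higher value at 15 than at 0 min in each of the 4 courses. In WT replicate 1 and 4P replicate 2 both of these arrays lay on 1 slide. The share of all genes that were higher in all 4 courses was not computed. The next step went down, with 5 genes falling in WT from 15 to 30 min (9.73% of all genes) and 7 in 4P (7.69%). From 30 to 45 min a further 3 steps down passed in WT (3.17%) and 2 in 4P (4.87%). From 45 to 60 min 7 genes rose in WT (3.26%) and 4 in 4P (1.8%). All 10 were higher in both WT courses, a count with no share of all genes beside it. From 60 to 75 min 3 genes rose in WT (4.03%) and 2 in 4P (7.4%). From 75 to 90 min 2 genes fell in WT (2.43%), while 1 rose in 4P (1.85%), and from 90 to 105 min 2 fell in each strain (1.39% and 2.4%). When single arrays were left out, 10 of the 28 steps called in WT and 8 of the 26 in 4P were lost in at least 1 fit, and these include the GSY2 steps from 45 to 60 min in 4P and from 90 to 105 min in WT. The latter was also lost when the scanner's ratios were used (-0.83, adjusted p = 0.0528). The median step of the 10 genes from 0 to 15 min was 1.26 in WT and 1.90 in 4P, against -0.0094 and -0.022 over all genes.

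Among the trehalose synthase genes, TSL1 had the widest range of all 10 genes in both strains. TSL1 in WT read -1.80 and -2.10 at 0 min, 0.37 and 0.091 at 15 min, -0.97 and -0.60 at 30 min, and then -1.76 and -1.68 at 45 min, with replicate 1 given before replicate 2. TSL1 later read in WT 0.68 and 0.46 at 60 min, 1.73 and 1.19 at 75 min, 0.97 and 0.51 at 90 min, and then 0.53 and -0.024 at 105 min. The WT arrays at 0 and 45 min were the lowest 4 of the course, and those at 75 min the highest. TSL1 in 4P read -2.10 and -2.05 at 0 min, 0.76 and 0.79 at 15 min, -1.32 and -0.77 at 30 min, and then -1.92 and -1.44 at 45 min. TSL1 later read in 4P -0.078 and -0.17 at 60 min, 0.53 and 0.46 at 75 min, 1.19 and 0.77 at 90 min, and then 0.33 and -0.27 at 105 min. The highest 4P mean came at 90 min, not at 75 min, and the pairs at 0 and 45 min were again the lowest. In replicate 2 of 4P, however, the highest value was at 15 min (0.79, against 0.77 at 90 min). The range was 3.41 in WT (adjusted p = 6.5e-10), and 3.05 in 4P (adjusted p = 1.93e-09). TSL1 rose from 0 to 15 min by 2.18 ± 0.247 (SE) in WT and 2.85 ± 0.247 in 4P, and from 45 to 60 min by 2.29 ± 0.247 and 1.56 ± 0.247. Its rise from 60 to 75 min passed in WT (0.89 ± 0.247, adjusted p = 0.0319) and not in 4P (0.62 ± 0.247, adjusted p = 0.118). The WT call was lost without either array at 60 min or replicate 1 at 75 min (values 0.62 to 1.16 over the fits without 1 array, highest adjusted p 0.400), as it was when the scanner's ratios were used (0.67, adjusted p = 0.154).

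TPS2, the phosphatase gene, peaked at 60 min in the WT means and at 15 min in those of 4P. TPS2 in WT read -0.23 and -0.54 at 0 min, 0.70 and 0.52 at 15 min, -0.78 and -0.64 at 30 min, and then -0.60 and -0.80 at 45 min. TPS2 later read in WT 0.95 and 0.87 at 60 min, 0.70 and 0.41 at 75 min, 0.082 and -0.091 at 90 min, and then 0.37 and 0.11 at 105 min. The WT pairs at 60 min were the highest and those at 30 and 45 min the lowest. TPS2 in 4P read -0.61 and -0.89 at 0 min, 1.26 and 1.35 at 15 min, -0.92 and -0.84 at 30 min, and then -1.06 and -0.78 at 45 min. TPS2 later read in 4P 0.49 and 0.095 at 60 min, 0.25 and 0.052 at 75 min, 0.15 and -0.14 at 90 min, and then -0.080 and -0.26 at 105 min. In 4P the pair at 15 min stood above every other array of the course. The range was 1.62 in WT (3.08-fold, adjusted p = 8.1e-08) and 2.23 in 4P (4.69-fold, adjusted p = 3.7e-09). From 15 to 30 min TPS2 fell by 1.32 ± 0.168 in WT and by 2.19 ± 0.168 in 4P, and from 45 to 60 min it rose by 1.61 ± 0.168 and 1.21 ± 0.168.

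TPS1, the synthase gene, had a smaller range and a lower mean in 4P than in WT at 7 of the 8 times. TPS1 in WT read -0.65 and -1.10 at 0 min, 0.045 and -0.84 at 15 min, -0.71 and -0.75 at 30 min, and then -0.71 and -1.11 at 45 min. TPS1 later read in WT 0.20 and -0.016 at 60 min, 0.61 and 0.22 at 75 min, 0.23 and -0.14 at 90 min, and then -0.087 and -0.16 at 105 min. The WT replicates differed most at 15 min, where replicate 2 was near its arrest level. TPS1 in 4P read -1.66 and -0.97 at 0 min, -0.23 and -0.070 at 15 min, -1.39 and -1.07 at 30 min, and then -1.21 and -0.97 at 45 min. TPS1 later read in 4P -0.54 and -0.81 at 60 min, -0.028 and -0.51 at 75 min, -0.22 and -0.51 at 90 min, and then -0.96 and -0.80 at 105 min. No 4P array was above 0, whereas 5 of the 16 WT arrays were. The range was 1.33 in WT (2.51-fold, adjusted p = 0.00126) and 1.16 in 4P (adjusted p = 0.00321). Its rise from 45 to 60 min passed in WT (1.00 ± 0.261, adjusted p = 0.0217), and in 4P the steps from 0 to 15 min (1.16 ± 0.261, adjusted p = 0.00309) and from 15 to 30 min (-1.08 ± 0.261, adjusted p = 0.00676) did. The WT step was lost in 3 of the 32 fits without 1 array and the 4P steps in 1 and 2 of them (highest adjusted p 0.200, 0.0937 and 0.0981), and the WT step also with median centring (adjusted p = 0.0644).

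TPS3, which encodes the regulatory subunit related to Tsl1, moved little beside it. TPS3 in WT read -0.66 and -0.67 at 0 min, -0.26 and -0.18 at 15 min, -0.75 and -0.47 at 30 min, and then -0.76 and -0.84 at 45 min. TPS3 later read in WT -0.46 and -0.17 at 60 min, 0.32 and -0.12 at 75 min, -0.33 and -0.34 at 90 min, and then -0.47 and -0.32 at 105 min. All WT arrays but replicate 1 at 75 min were below 0. TPS3 in 4P read -0.61 and -0.80 at 0 min, 0.099 and -0.39 at 15 min, -0.88 and -0.71 at 30 min, and then -0.90 and -0.78 at 45 min. TPS3 later read in 4P -0.33 and -0.53 at 60 min, -0.19 and -0.52 at 75 min, -0.056 and -0.36 at 90 min, and then -0.44 at 105 min (replicate 2 alone). In 4P only replicate 1 at 15 min, on an array rich in outlier spots, was above 0. The range was 0.90 in WT (adjusted p = 0.00804) and 0.70 in 4P (adjusted p = 0.014). No single step passed in WT, and in 4P the rise to 15 min (0.56 ± 0.178) and the fall to 30 min (-0.65 ± 0.178) did. Without the 4P arrays of replicate 1 at 15 and 105 min these steps were 0.32 and -0.40 and did not pass (adjusted p = 0.368 and 0.210). With the scanner's own log ratios the change over time did not pass in WT or 4P (adjusted p = 0.0743 and 0.249).

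NTH1, the trehalase gene, had 1 of the narrowest ranges. NTH1 in WT read -0.52 and -0.56 at 0 min, -0.17 and -0.46 at 15 min, -0.43 and -0.21 at 30 min, and then -0.79 and -0.44 at 45 min. NTH1 later read in WT -0.29 and 0.22 at 60 min, 0.27 and 0.16 at 75 min, 0.014 and -0.0037 at 90 min, and then -0.28 and 0.14 at 105 min. The WT means at 0 and 45 min were the lowest, and only arrays from 60 min on were above 0. NTH1 in 4P read -0.47 and -0.47 at 0 min, 0.29 and -0.048 at 15 min, -0.31 and -0.26 at 30 min, and then -0.63 and -0.47 at 45 min. NTH1 later read in 4P -0.29 and -0.12 at 60 min, 0.11 and 0.019 at 75 min, 0.28 and -0.010 at 90 min, and then 0.51 and -0.17 at 105 min. The 4P replicates at 105 min had an SD of 0.48, so the highest mean there rests on replicate 1. The range was 0.83 in WT (adjusted p = 0.0228) and 0.72 in 4P (adjusted p = 0.0201), and no single step passed in either strain. The WT call was lost without replicate 1 at 45 or 75 min (highest adjusted p 0.0722), and the 4P call without replicate 1 at 45 min (adjusted p = 0.0653) or when the scanner's ratios were used (adjusted p = 0.224).

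Of the glycogen synthase genes, GSY1 had its highest mean in WT at 60 min. GSY1 in WT read -1.02 and -1.15 at 0 min, 0.68 and 0.51 at 15 min, -1.48 and -1.13 at 30 min, and then -1.54 and -1.44 at 45 min. GSY1 later read in WT 1.25 and 1.20 at 60 min, 1.04 and 0.63 at 75 min, 0.0100 and -0.039 at 90 min, and then 0.39 and 0.22 at 105 min. The 6 WT arrays at 0, 30 and 45 min were the lowest, and both at 60 min were above all others. GSY1 in 4P read -0.89 and -1.001 at 0 min, 1.53 and 1.25 at 15 min, -1.34 and -0.99 at 30 min, and then -1.54 and -1.28 at 45 min. GSY1 later read in 4P 0.67 and 0.80 at 60 min, 0.79 and 0.85 at 75 min, 0.42 and 0.34 at 90 min, and then 0.025 and -0.088 at 105 min. In 4P the highest pair was at 15 min. The range was 2.71 in WT (6.56-fold, adjusted p = 7.1e-12) and 2.79 in 4P (6.94-fold, adjusted p = 8.11e-12). From 0 to 15 min GSY1 rose by 1.68 ± 0.157 in WT and 2.33 ± 0.157 in 4P, fell by 1.90 ± 0.157 in WT and fell by 2.55 ± 0.157 in 4P at the next step, and rose from 45 to 60 min by 2.71 ± 0.157 and 2.14 ± 0.157. The last of these was the largest single step of the 10 genes in WT.

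GSY2, the gene of the predominant synthase, reached its highest WT mean later, at 75 min. GSY2 in WT read -1.50 and -1.82 at 0 min, 0.35 and 0.025 at 15 min, -1.17 and -0.84 at 30 min, and then -1.63 and -1.33 at 45 min. GSY2 later read in WT -0.095 and -0.026 at 60 min, 1.34 and 1.18 at 75 min, 0.38 and 0.44 at 90 min, and then -0.43 and -0.64 at 105 min. Only the pairs at 15, 75 and 90 min were above 0 in WT. GSY2 in 4P read -1.55 and -1.96 at 0 min, 0.91 and 0.52 at 15 min, -1.24 and -1.04 at 30 min, and then -1.95 and -1.63 at 45 min. GSY2 later read in 4P -1.03 and -0.85 at 60 min, 0.73 and 0.84 at 75 min, 0.99 and 0.71 at 90 min, and then -0.41 and -0.62 at 105 min. The pairs at 15, 75 and 90 min were again those above 0, and the pair at 60 min lay just above the pair at 30 min. The range was 2.92 in WT (7.57-fold, adjusted p = 1.52e-10) and 2.64 in 4P (6.21-fold, adjusted p = 2.82e-11). GSY2 rose from 45 to 60 min by 1.42 ± 0.186 in WT and 0.85 ± 0.186 in 4P, and from 60 to 75 min by 1.32 ± 0.186 and 1.72 ± 0.186. From 90 to 105 min it fell by 0.94 ± 0.186 and 1.37 ± 0.186.

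GLC3, the branching enzyme gene, had its highest mean at 15 min in both strains, while none of the other 9 genes did so in WT. GLC3 in WT read -0.18 and -0.26 at 0 min, 1.19 and 1.42 at 15 min, -0.51 and -0.37 at 30 min, and then -0.77 and -0.84 at 45 min. GLC3 later read in WT 0.20 and 0.17 at 60 min, 0.71 and 0.37 at 75 min, 0.17 and 0.17 at 90 min, and then 0.14 and -0.49 at 105 min. The pair at 15 min stood above every other WT array. GLC3 in 4P read -0.21 and -0.31 at 0 min, 1.69 and 1.69 at 15 min, -0.36 and 0.16 at 30 min, and then -0.68 and -0.39 at 45 min. GLC3 later read in 4P -0.048 and 0.40 at 60 min, 0.27 and 0.65 at 75 min, 0.33 and 0.49 at 90 min, and then -0.034 and 0.085 at 105 min. The same held in 4P, where both arrays at 15 min read 1.69. The range was 2.11 in WT (4.32-fold, adjusted p = 6.47e-07) and 2.22 in 4P (4.67-fold, adjusted p = 3.43e-07). GLC3 rose to 15 min by 1.52 ± 0.199 in WT and 1.95 ± 0.199 in 4P and fell by 1.74 ± 0.199 and 1.79 ± 0.199 at the next step. Its rise from 45 to 60 min passed in WT (0.99 ± 0.199, adjusted p = 0.00258) and came to 0.71 ± 0.199 in 4P (adjusted p = 0.0563).

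Of the genes for glycogen breakdown, GPH1 fell between 30 and 45 min in both strains. GPH1 in WT read -1.28 and -1.51 at 0 min, 0.69 and 0.20 at 15 min, 0.092 and 0.067 at 30 min, and then -1.23 and -1.16 at 45 min. GPH1 later read in WT -0.48 and -0.51 at 60 min, 0.71 and 0.39 at 75 min, 0.60 and 0.34 at 90 min, and then -0.076 and -0.40 at 105 min. Both WT arrays at 30 min were still above 0, and both at 45 min were well below it. GPH1 in 4P read -1.08 and -1.19 at 0 min, 0.81 and 0.63 at 15 min, 0.30 and 0.23 at 30 min, and then -0.96 and -0.72 at 45 min. GPH1 later read in 4P -1.19 and -1.08 at 60 min, -0.12 and -0.081 at 75 min, 0.60 and 0.40 at 90 min, and then 0.0038 and -0.097 at 105 min. In 4P the pair at 60 min was as low as at 0 min. The range was 1.95 in WT (3.85-fold, adjusted p = 1.22e-09) and 1.85 in 4P (3.62-fold, adjusted p = 2.51e-09). GPH1 fell from 30 to 45 min by 1.28 ± 0.16 in WT and 1.11 ± 0.16 in 4P. Its steps from 15 to 30 min, -0.37 ± 0.16 and -0.45 ± 0.16, did not pass (adjusted p = 0.108 and 0.0673).

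GDB1, the debranching enzyme gene, had the narrowest range of the 10 genes in both strains. GDB1 in WT read -0.12 and -0.43 at 0 min, 0.33 and -0.29 at 15 min, 0.28 and 0.16 at 30 min, and then -0.39 and -0.62 at 45 min. GDB1 later read in WT -0.33 and -0.19 at 60 min, 0.41 and 0.096 at 75 min, -0.20 and -0.13 at 90 min, and then -0.14 and -0.10 at 105 min. The WT mean at 45 min was the lowest, and both arrays at 30 min and both at 75 min were above 0. GDB1 in 4P read -0.42 and -0.24 at 0 min, 0.13 and -0.087 at 15 min, -0.033 and 0.066 at 30 min, and then -0.66 and -0.38 at 45 min. GDB1 later read in 4P -0.43 and -0.37 at 60 min, -0.29 and -0.20 at 75 min, 0.047 and -0.24 at 90 min, and then -0.43 and -0.24 at 105 min. In 4P 3 of 16 arrays, at 15, 30 and 90 min, were above 0. The range was 0.76 in WT (adjusted p = 0.0166) and 0.54 in 4P, where the change over time did not pass (adjusted p = 0.0982). Its 1 step that passed was a fall of 0.72 ± 0.177 from 30 to 45 min in WT, a call lost without either WT array at 30 min or replicate 2 at 45 min (highest adjusted p 0.153), with slide as a term (adjusted p = 0.0512) and with the scanner's ratios (adjusted p = 0.125). The WT call over time was lost without replicate 2 at 45 min (adjusted p = 0.0630) or when the scanner's ratios were used (adjusted p = 0.0545).

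Likeness of the courses was described by Pearson's r over the 16 group means, which share arrays, reference and normalisation. The 45 pairs among the 10 genes had a median r of 0.762, from 0.281 (GSY1 with GDB1) to 0.948 (TSL1 with GSY2), against a median of -0.0019 over all pairs of genes. TPS3 and TSL1 were most like the mean of the other 9 genes (r = 0.953 and 0.949), and GDB1 least (r = 0.537). TPS2 and GSY1 formed a close pair (r = 0.946). GPH1 and GDB1 had r = 0.761, near the median of the 45 pairs. GPH1 and GDB1, both for glycogen breakdown, were less like TPS2 (r = 0.454 and 0.328). Outside the 10 genes, the courses most like their mean were those of EMI2 (r = 0.977), the glucokinase gene GLK1 (r = 0.969), the nicotinamidase gene PNC1 (r = 0.965), OSH2 (r = 0.958) and the hexokinase gene HXK1 (r = 0.949).

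**Figure D3:**
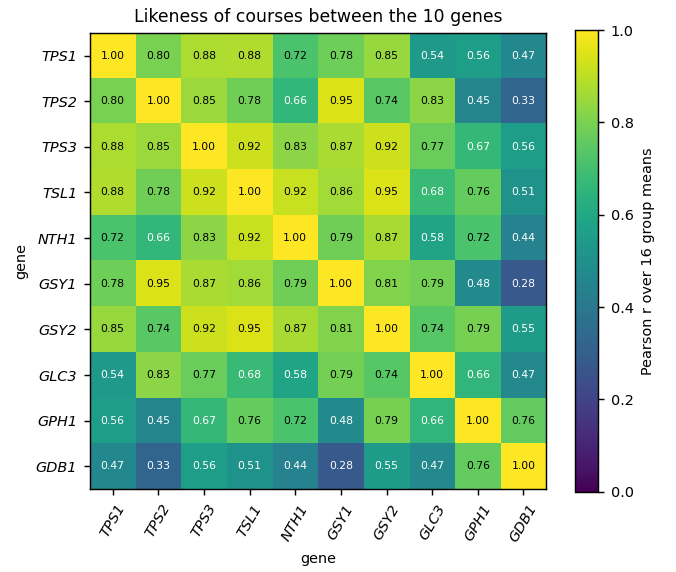
Pearson's r between the courses of each pair of the 10 genes (both axes list the genes), over 16 group means of log2 ratios, with colour from 0 to 1. Pairs among the TPS genes, TSL1 and the GSY genes have r from 0.743 (TPS2 with GSY2) to 0.948 (TSL1 with GSY2). With these genes NTH1 has r from 0.661 (TPS2) to 0.916 (TSL1). Some pairs with GLC3 or GPH1 are as high, such as GLC3 with TPS2 (r = 0.826). The lowest value is that of GDB1 with GSY1 (r = 0.281).

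Single genes had their own near neighbours over all genes tested. PGM2, the phosphoglucomutase gene, was most like GPH1 (r = 0.951), and the mitochondrial outer membrane gene OM45 was most like GLC3 (r = 0.976). EMI2 was most like GSY2 (r = 0.973) and TPS3 (r = 0.934), and GID11 was most like TPS2 (r = 0.947). For NTH1 the nearest was TSL1 (r = 0.916), and for GSY1 it was TPS2. GDB1 was nearest to EPT1 (r = 0.908) and to the DNA polymerase gene POL1 (r = 0.880). PIL1 was close to TPS1 (r = 0.900) and PNC1 to TSL1 (r = 0.966). Next in likeness were RGI1 for NTH1 (r = 0.913) and PIC2 for GSY1 (r = 0.944). HOR7 was second for GPH1 (r = 0.943) and YLR252W for GLC3 (r = 0.935).

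Between the strains, 4 of the 10 genes differed at some time, TPS2, GSY1, GSY2 and GPH1 (adjusted p = 0.0181, 0.0207, 0.0219 and 0.0232), against 5.04% of all genes. With the replicate number as a block, TPS1 and TSL1 passed as well (adjusted p = 0.0177 and 0.0256). That block raised the number of all genes called from 313 to 1004. The limma test of a difference that depends on time called none of the 10, of which 5 had an unadjusted p under 0.05, as did 4.08% of all genes (lowest adjusted p 0.122, for GSY1 and GPH1) and 0.0806% of all genes. With the replicate block it called TPS2 and GPH1 (adjusted p = 0.0348 and 0.0335), and 30 of all genes against 5 without the block. With slide as a term GPH1 alone kept its difference at any time, and TPS2, GSY1 and GSY2 had adjusted p = 0.0915, 0.0910 and 0.111.

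At 15 min GSY1 was higher in 4P, at 1.53 and 1.25 against 0.68 and 0.51 in WT, so that the strains did not overlap. The difference was 0.79 ± 0.157 (adjusted p = 0.0484), and 0.0967% of all genes were called higher there. TPS2 stood at 1.26 and 1.35 in 4P and 0.70 and 0.52 in WT, a difference of 0.70 ± 0.168 (adjusted p = 0.0849, and 0.0224 with a replicate block). Over all genes that block raised the calls at 15 min, in either direction, from 7 to 89. Of the 10 genes 9 had a positive difference at 15 min, with a median of 0.41 against 0.022 over all genes. That count was 8 with slide as a term, 9 with median centring and 10 with the scanner's ratios. In both replicates 7 were higher in 4P. At an unadjusted p under 0.05 in limma 5 of the 10 differed, against 14.3% of all genes. The share of all genes with the same sign in both replicates was not computed. Because the 10 genes moved largely together, counts of signs among them are not independent results. With the time course as a random block neither GSY1 nor TPS2 passed at 15 min (adjusted p = 0.0756 and 0.0870). The GSY1 call was lost in 26 of the 32 fits that left out 1 array (values 0.65 to 0.93, highest adjusted p 0.388). Without the outlier-rich 4P arrays of replicate 1 it was 0.65 (adjusted p = 0.233). Mitosis markers at 15 min were less low in 4P, with 4 of 4 higher and none called, and their mean ranged from -2.40 to -1.83 in WT and from -1.63 to -1.46 in 4P. Their part in the differences of the 10 genes was not tested.

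At 60 min GSY2 was lower in 4P, at -1.03 and -0.85 against -0.095 and -0.026 in WT, without overlap. The difference was -0.88 ± 0.186 (adjusted p = 0.0296), where 0.435% of all genes were called lower. TPS2 and GPH1 differed by -0.62 ± 0.168 and -0.64 ± 0.16 (adjusted p = 0.161 and 0.104, and 0.0414 and 0.0290 with a replicate block). Over all genes that block raised the calls at 60 min, in either direction, from 28 to 43. With the time course as a random block GSY2, TPS2 and GPH1 did not pass at 60 min (adjusted p = 0.0540, 0.158 and 0.0793). TPS1 and TSL1 differed by -0.76 ± 0.261 and -0.70 ± 0.247 and did not pass (adjusted p = 0.458 and 0.533). All 10 differences were negative, with a median of -0.56 against -0.0054 over all genes. That count was 9 with slide as a term or with median centring. In both replicates 7 genes were lower in 4P, a count with no share of all genes beside it. At an unadjusted p under 0.05 in limma 6 of the 10 differed, against 5.17% of all genes. For GLC3 the difference was -0.0098, with a 95% interval of -0.42 to 0.40. The GSY2 call was lost without any 1 of the 4 arrays at 60 min (values -0.97 to -0.79, highest adjusted p 0.392).

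At 75 min TSL1 and GPH1 were lower in 4P. TSL1 stood at 0.53 and 0.46 in 4P and 1.73 and 1.19 in WT, a difference of -0.97 ± 0.247 (adjusted p = 0.032). GPH1 stood at -0.12 and -0.081 in 4P and 0.71 and 0.39 in WT, a difference of -0.65 ± 0.16 (adjusted p = 0.03). Neither gene's strains overlapped there, and 2.3% of all genes were called lower. All 10 differences were negative, with a median of -0.46 against 0.0012 over all genes. That count was 8 with slide as a term, with median centring or with the scanner's ratios. In both replicates 8 genes were lower in 4P, a count with no share of all genes beside it. At an unadjusted p under 0.05 in limma 7 of the 10 differed, where 23.8% of all genes did. GSY1 differed by -0.012, with a 95% interval of -0.34 to 0.31, and GLC3 by -0.078 (-0.49 to 0.34). Both calls at 75 min were lost without WT replicate 1 or either 4P array of that time (values -1.24 to -0.70 for TSL1 and -0.81 to -0.49 for GPH1 over all 32 fits without 1 array, highest adjusted p 0.324 and 0.294).

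**Figure D4:**
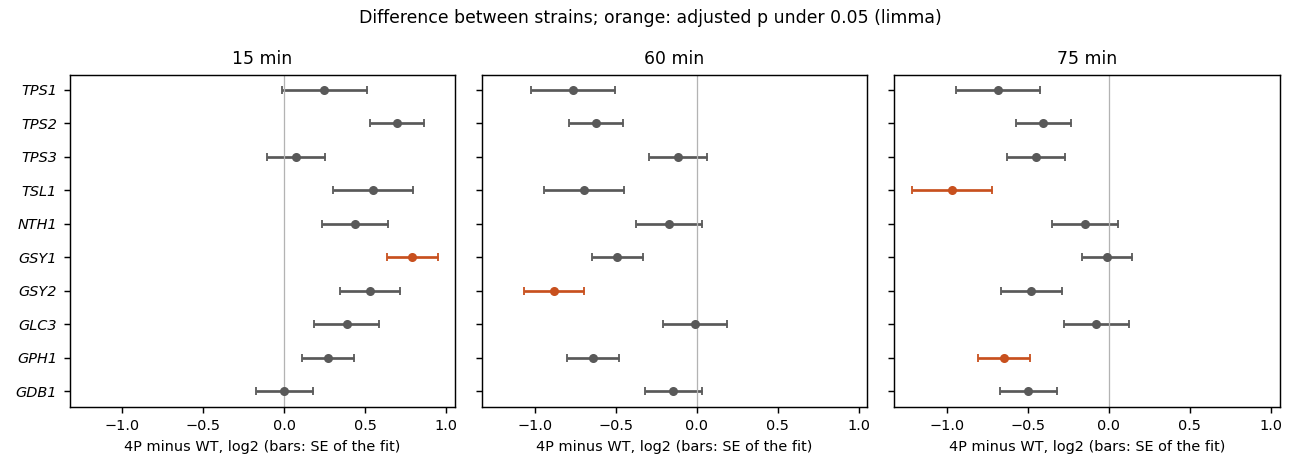
Difference 4P minus WT in log2 ratio (horizontal axis) for each of the 10 genes (vertical axis) at 15, 60 and 75 min. Points are differences of means of 2 arrays and bars the SE of the fit. Orange marks GSY1 at 15 min, GSY2 at 60 min, and TSL1 and GPH1 at 75 min, the 4 with adjusted p under 0.05.

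None of the 4 differences passed with slide as a term. GSY1 at 15 min was then 0.71, GSY2 at 60 min -0.58, TSL1 at 75 min -0.82 and GPH1 at 75 min -0.50 (adjusted p = 0.696, 0.998, 0.257 and 0.241). Slide and strain largely coincided, and the only time at which same-numbered arrays of both strains shared a slide was 45 min, in replicate 1. Stage markers moved at the same times. The M/G1 marker mean at 60 min ranged from -0.61 to -0.50 in WT and from -1.62 to -1.51 in 4P, with 4 of 4 markers lower and 1 called, SIC1. The G1/S marker mean at 75 min was 1.81 on both WT arrays and 1.23 and 1.25 in 4P, with 3 of 4 lower and none called. At 90 min it was 0.41 and 0.44 in WT and 0.67 and 1.13 in 4P, and 9 of the 10 genes then had a positive difference, with a median of 0.13. The part of these stage markers in the differences of the 10 genes was not tested.

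At the other times no gene of the 10 was called between the strains in limma (at an unadjusted p under 0.05, 1 gene at 0 min, 0 at 30 min, 1 at 45 min, 2 at 90 min and 3 at 105 min, against 7.62%, 12.5%, 5.09%, 6.46% and 8.53% of all genes), with 0.113% of all genes called at 0 min, 0.0967% at 30 min, 0.161% at 45 min, 0.0322% at 90 min and 0.371% at 105 min. In the arrest the 10 genes had a median difference of -0.046. Over the whole course, with the mean of each course as 1 value and 2 courses against 2, none of the 10 was called in limma, and 0.0161% of all genes were. TPS1 had the largest such difference, with course means of -0.14 and -0.49 in WT and -0.78 and -0.71 in 4P. It came to -0.43 ± 0.137, lower in both 4P courses than in either WT course (unadjusted p = 0.0173, adjusted p = 0.427). The replicate block gave adjusted p = 0.0265 for it.

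Steps were also compared between the strains directly, with contrasts added after the data had been seen. None of the 10 genes was called at any of the 7 steps. Over all genes 0.0161% were called from 15 to 30 min, 0.0806% from 60 to 75 min and 0% at the other steps. The largest such difference among steps that ran in opposite directions in all courses was that of TSL1 from 75 to 90 min. TSL1 had a step of -0.72 in WT and of 0.48 in 4P, and neither step passed by itself. Of the other steps, the largest difference was that of TPS2 from 0 to 15 min. It came to 1.06 ± 0.238 and did not pass in limma (adjusted p = 0.834).

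Around these 10 genes, 40 others that supply their substrates, start or regulate glycogen, or signal to the stores were examined. Over time 22 of the 40 changed in WT, 20 did in 4P and 18 did in both strains (31 in WT and 29 in 4P with a replicate block). Of all genes 35.7% changed in WT and 40.4% in 4P, or 50.3% and 55.2% with that block, and the counts of the smaller lists below are to be read against the former shares. Among 9 genes of breakdown and glucosyl supply, 6 changed in WT and 5 in 4P. HXK1 and GLK1, which phosphorylate glucose, had ranges of 2.63 and 2.08 in WT. PGM2 had a range of 2.48, with -0.99 and -1.29 at 0 min and 1.46 and 0.78 at 15 min in WT, and -0.92 and -1.21 and 1.495 and 1.26 in 4P. UGP1, whose product makes UDP-glucose, the donor for both stores, had a range of 1.51, lowest at 0 min in both strains. PGM1, the minor phosphoglucomutase gene, was highest at 0 min in both strains (range 0.86 in WT) and ran against the mean of the 10 genes (r = -0.50).

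Of 15 genes of glycogen initiation and control, 7 changed in WT and 6 in 4P, close to the shares of all genes. PIG1, a targeting subunit gene of the phosphatase Glc7 that activates glycogen synthase, read -1.31 and -0.66 at 45 min and 1.21 and 1.15 at 60 min in WT. In 4P PIG1 read -1.70 and -1.50 at 45 min and -0.16 and -0.47 at 60 min, so the strains were apart at 60 min by -1.49 ± 0.211 (adjusted p = 0.00101). By 75 min PIG1 read 1.17 and 0.89 in WT and 0.86 and 1.00 in 4P, which overlapped. The PIG1 difference at 60 min was lost with slide as a term (-1.25, adjusted p = 0.207) and without 4P replicate 2 at 60 min (-1.34, adjusted p = 0.0511). IGD1, an inhibitor of the debranching enzyme, had a range of 1.21 in WT, highest at 60 min in both strains. The glycogenin gene GLG2 was lowest at 0 min in both strains (range 1.41 in WT) and differed between the strains at some time (adjusted p = 0.0151), a call lost with slide as a term (adjusted p = 0.598) and with the time course as a random block (adjusted p = 0.255).

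Signalling was covered by 12 genes, of which 7 changed in WT and 8 in 4P, against 35.7% and 40.4% of all genes. Of 4 genes of trehalase and synthase control 2 changed in WT and 1 in 4P, against the same shares. MSN4 had a range of 1.27 in WT and, unlike the 10 genes, was lowest there at 15 min. MSN2 read 0.27 and 0.17 in WT and -0.32 and -0.62 in 4P at 75 min, a difference of -0.69 (adjusted p = 0.0290) that was lost without any 1 of the 4 arrays of that time, with slide as a term (adjusted p = 0.243) and with median centring (-0.56, adjusted p = 0.0791). The Pho85 cyclin gene PCL7 differed by -0.54 at 75 min (adjusted p = 0.0483), a call lost in 22 of 32 fits without 1 array, with slide as a term (-0.50, adjusted p = 0.241), with median centring (-0.43, adjusted p = 0.130) and with offset 16 (adjusted p = 0.0597). Of the 7 stress genes examined beside them, all changed in both strains. Their mean was highest at 15 min, as was that of the 10 genes in 4P, and ranged there from 0.84 to 1.04 in WT and from 0.88 to 1.19 in 4P. HSP42 had a course like the mean of the 10 genes (r = 0.938), whereas HSP12 and HSP26 did not (r = -0.031 and -0.187). Between them lay HSP104 (r = 0.831), DDR2 (r = 0.704), CTT1 (r = 0.653) and SSA4 (r = 0.523).

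**Figure D5:**
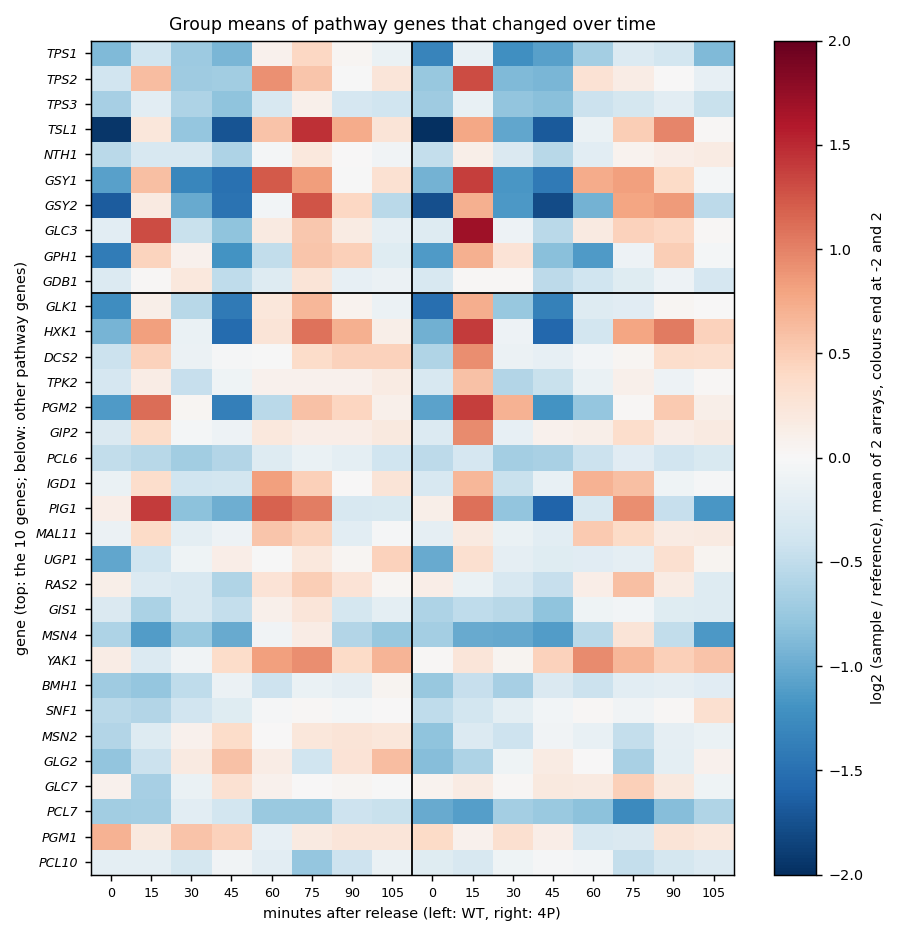
Group means of the log2 ratio (colour, blue low and red high, ending at -2 and 2) at 8 times in WT (left) and 4P (right). The top rows are the 10 genes and the rows below are 23 other pathway genes that changed over time in at least 1 strain, ordered by their likeness to the mean of the 10 genes, with PIG1 lower at 60 min in 4P than in WT.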

How the data were processed

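RNA of synchronised WT and 4P cultures was measured at 8 times with 2 arrays each, against a common reference. Per the labels, the RNA was amplified in vitro before dye coupling. Replicate 1 carried the synchronised RNA in the Cy3 channel, and replicate 2 in the Cy5 channel. Per the submitters' processing notes, Agilent Feature Extraction 10.7.1.1 produced the deposited scanner files. Per the file headers, these give each channel's median signal and background intensity, and the red over green ratio as log10. The deposited series table gives log2 values with array medians from -0.04 to 0.02 that correlated with the scanner's ratios at r = 0.961 to 0.999. It runs as synchronised sample over reference, and the sources used here do not give its normalisation.

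From the intensities, background was corrected with normexp (offset 50) and loess was run within each array in limma 3.58.1 under R 4.3.3, with control and outlier spots at weight 0. Outlier spots were then set missing, the 2 spots of a probe and the probes of a gene averaged, and ratios turned to sample over reference. Probes were kept if well above background on all arrays of at least 1 group in the synchronised channel (6236 probes, 6205 genes). For this, 1 of the 2 spots of a probe was enough. Systematic names came from the array's annotation, and symbols from the RefSeq table R64 by systematic name. A name with no match there was kept as it was. The array's genome build is older than that table, so no coordinates are given. Group means were fitted over all 32 arrays, with moderated F tests and contrasts and Benjamini-Hochberg adjustment over all genes at 0.05. The fit was tested on simulated data with noise drawn independently for each array. That simulation does not cover error shared within a course, slide or dye orientation. P values rest on the spread between the 2 arrays within a group, pooled for each gene over all 16 groups and moderated over genes. Nothing in the labels says whether courses came from separate starting cultures.

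The 10 genes, the gene lists and the tests were chosen with earlier results of these data known. Named beside the 10 genes were other pathway genes that passed a test over time or between strains, and the genes most alike by r (the 5 most like the mean, the 2 most like each gene). A search of promoters for motifs was planned and not run, and 1 gene that the rule named is not reported here. The replicate number marks a time course within a strain and the dye orientation across strains, so it pairs arrays by the labels. Deviations from group means of equal-numbered arrays correlated at a median r of 0.426 within WT, 0.307 within 4P and 0.327 between strains at the same time (lowest -0.0069, -0.012 and 0.050). Alternatives were replicate, slide or course blocks, median centring, the scanner's and the deposited table's ratios, other background corrections, other filters, single probes and omission of arrays.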

Additional observations from a re-analysis of the deposited data

Results flagged for a closer look

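In 8 cases a gene's step between successive times ran 1 way in both WT courses and the opposite way in both 4P courses. That is 8 of 69 gene steps with all values (11.6%), against 8.3% over all genes with a value on all arrays. The difference in step, 4P minus WT, was 1.20 ± 0.349 (SE) for TSL1 from 75 to 90 min, where the WT steps were -0.76 and -0.68 and the 4P steps 0.66 and 0.31. GPH1 differed by -0.996 ± 0.227 from 45 to 60 min, with WT steps of 0.76 and 0.65 and 4P steps of -0.23 and -0.36. From 75 to 90 min it differed by 0.68 ± 0.227, with small WT steps of -0.11 and -0.050 and 4P steps of 0.71 and 0.48. GSY1 differed by 0.48 from 60 to 75 min and by -0.73 from 90 to 105 min. TPS3 differed by 0.58 from 75 to 90 min and TPS2 by -0.42 from 90 to 105 min. TPS1 differed by 0.33 ± 0.369 from 30 to 45 min, less than its SE, with WT steps of -0.0056 and -0.36 and 4P steps of 0.19 and 0.11. A direct test of the difference in limma called none of the 8 (adjusted p from 0.498 to 1.00). At an unadjusted p under 0.05 it called between 46 genes (30 to 45 min) and 454 genes (15 to 30 min) of the 6205.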

How the results depend on the processing

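All 10 genes changed over time in WT under each alternative except the scanner's ratios (8 genes), the deposited ratios (9) and 3 of the 32 omissions of 1 array (9). The 9 genes in 4P became 7 with the scanner's or the deposited ratios, 8 with slide as a term, and 8 to 10 on omission of an array. The 28 steps in WT and 26 in 4P became 27 to 33 in fits with blocks, 27 and 25 with median centring, and 24 and 23 with the scanner's or the deposited ratios, and on omission of an array they ranged from 25 to 32 and from 24 to 29. With a replicate block, 6 genes differed between strains at some time, 2 in a way that depended on time, 7 differences at single times passed and 1 over the course mean, and no other call named in the text was lost. With slide as a term these were 1 at some time and 0 at single times, and the median r between the genes was 0.724. With the time course as a random block (correlation 0.241), 4 genes differed in a way that depended on time and 2 single differences passed, TSL1 and GPH1 at 75 min. Median centring left 2 single differences and moved the median of all genes at 15 min to 0.13. With the scanner's ratios, and with the deposited ones, 0 genes differed at some time and 0 at single times, with a median r of 0.677 and 0.678. Some differences that were not called changed sign, the widest being TPS2 at 75 min (-0.40). With slide as a term TPS3 at 15 min was -0.089, NTH1 at 60 and 75 min 0.018 and 0.043, and GSY1 at 75 min 0.054. With median centring GLC3 at 60 and 75 min was 0.046 and 0.030, and GSY1 at 75 min 0.12. With the scanner's ratios GDB1 at 15 min was 0.086, TPS2 at 75 min 0.32 and GLC3 at 75 min 0.028, and with the deposited ratios they were 0.085, 0.33 and 0.030. GDB1 at 15 min was 0.036 without background correction and 0.024 with offset 16, and TPS3 at 15 min was -0.17 without the outlier-rich 4P arrays. Omission of single arrays gave 1 to 6 single differences, 2 to 5 genes at some time, 0 to 1 that depended on time, and a median r of 0.739 to 0.782. In those fits GDB1 at 15 min ranged from -0.31 to 0.31, TPS1 from -0.20 to 0.69 and TPS3 from -0.17 to 0.32. At 60 min GLC3 ranged from -0.23 to 0.21, NTH1 from -0.43 to 0.085 and TPS3 from -0.26 to 0.027, and at 75 min GLC3 ranged from -0.27 to 0.11 and GSY1 from -0.22 to 0.19. Over all genes, 313 differed between strains at some time, against 1004 with a replicate block, 23 with slide, 73 with the course block, 194 with median centring, 78 with the scanner's ratios and 96 with the deposited table. The 5 that depended on time became 30, 13 and 47 with the blocks in that order, 0 with the scanner's ratios and 2 without the outlier-rich arrays. The causes were not tested. With the dye orientations balanced in each group, leaving out an array also removes that balance. The fits with slide or course blocks gave no value for the mean over the course. All 10 probes were well above background on all arrays, and whether signal limited the ratios was not tested.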
